A study of Mus musculus with 12 samples.

Results

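The genes described here encode nuclear-encoded subunits of respiratory complexes II, III and V, the electron carrier cytochrome c, and 5 subunits of cytochrome c oxidase (COX, complex IV). These 5 are common to most tissues and are called the common COX subunits below. They are not the whole enzyme: other COX subunits, Cox6b1 among them, are given later for comparison. They were chosen by name: 34 gene symbols, older Atp5 names included, were matched to Ensembl identifiers in the count tables, and all 34 were found among 37583 gene rows. Complex II gave 4 genes, complex III 9, cytochrome c 1 (Cycs), complex V 15 and the common COX subunits 5. RNA was measured in 12 single-cell clones of granulocyte-monocyte progenitors (GMPs) from fetal liver of C57BL/6 mice at embryonic day 15.5. All 12 clones carried ER-Hoxb8, a retrovirally delivered fusion of an estrogen receptor domain with the transcription factor Hoxb8 that blocks maturation while estradiol is present, and all were kept in 0.5 uM beta-estradiol with medium conditioned to supply stem cell factor. The 6 wildtype clones were 1A, 1B, 1C, 2D, 2E and 2F. The 6 clones lacking Tafazzin (gene Taz) were 3G, 3H, 3I, 4J, 4K and 4L. How many embryos the clones came from, how the Taz allele was made and what the title number before the clone letter stands for are not given in the sources used here. If clones that share a number share an embryo or a parent line, they are not independent and the p-values below are too small.

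Succinate dehydrogenase (complex II) passes electrons from succinate to ubiquinone, and cytochrome bc1 (complex III) passes them from ubiquinol to cytochrome c while pumping protons. Cytochrome c carries them to COX, and the proton gradient drives ATP synthase (complex V). Tafazzin remodels cardiolipin, the inner-membrane lipid to which complexes III, IV and V and cytochrome c bind. The comparison asks how transcripts of these complexes differ between progenitors with and without Tafazzin. RNA was counted, so the amounts of the proteins and the assembled complexes were not measured, and the subunits encoded by mitochondrial DNA were not analysed here. With RNA from whole cultures, fewer cells of a type and less RNA per cell cannot be told apart.

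Library totals were 18970252 to 27431544 counts in genes, with lower totals in knockout (21197723 ± 2016313, SD, n = 6) than in wildtype (24969227 ± 2150523, n = 6; exact two-sided permutation p = 0.0152, or 0.0303 when adjusted for the 4 measures of the libraries tested). Taz itself was at 39.2 ± 2.58 CPM (counts scaled to library size, the scale of all levels below unless stated) in wildtype and 3.35 ± 0.685 in knockout, a log2 fold change of -3.54 (SE 0.13). Progenitor markers (Kit, Cd34, Mpo, Elane, Prtn3, Ctsg, Cebpa, Fcgr3, Flt3, Myb) were detected in every clone. By edgeR 0 of these 10 were called, with 0 at an unadjusted p under 0.05 and 0 called by DESeq2. Their log2 fold changes ran from -2.04 to 0.27 (median -0.02), so the absence of calls does not show that each was level. Some clones stood apart in markers of other cells. The 10 mature neutrophil markers summed to 1538 CPM in clone 2D, against 22.1 to 115 in the other wildtype clones and 15.9 to 145 in knockout. The 5 fetal hepatocyte markers summed to 141 CPM in clone 3G (Alb 122.5) and to 0 to 1.95 in the other 11. The 9 lymphoid markers summed to 38.5 to 89.0 CPM in wildtype and 6.58 to 33.0 in knockout, with no overlap, with Cd3e at 0 counts in every clone and Pax5 at 0 to 2. By edgeR, 2 of 7 tested lymphoid markers were called lower, Cd79b (log2 fold change -3.60) and Igll1 (-3.55), and 1 of 7 tested mature neutrophil markers, Cxcr2 (-1.64). Of the tested macrophage (3), mast cell and basophil (5) and erythroid (4) markers 0 were called by edgeR. At an unadjusted p under 0.05 there were 0, 1 and 1 of these, and DESeq2 called 0, 0 and 1. The part of these markers in the subunit results was not tested, and the called subunits and the sums are also given without 2D and 3G.

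Transcripts of the subunits were lower in knockout by small amounts. Of the 34 genes 32 passed the filter on low counts, and 8 were called lower (Cycs, Atp5k, Sdhd, Atp5g3, Uqcrfs1, Atp5j2, Uqcr10 and Uqcrh) and 1 higher (Uqcrq) by edgeR's quasi-likelihood test at an adjusted p under 0.05. The 8 are 25% of the 32, where 3.94% of all 11819 genes tested were called lower, 3.99% higher and 7.94% either way. The log2 fold change was below 0 in 29 of the 32, or 90.6%, against 51.7% of all genes. The median log2 fold change was -0.07 over the 32 genes and -0.01 over all genes. At an unadjusted p under 0.05 there were 13 lower and 1 higher, against 12.5% and 11.2% of all genes. In 6 subunit genes (Cycs, Atp5k, Sdhd, Atp5g3, Atp5j2, Uqcrh) every knockout clone lay below every wildtype clone, as in 2.84% of all genes, and 0 showed the opposite order, as in 2.54%.

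**Figure D1:**
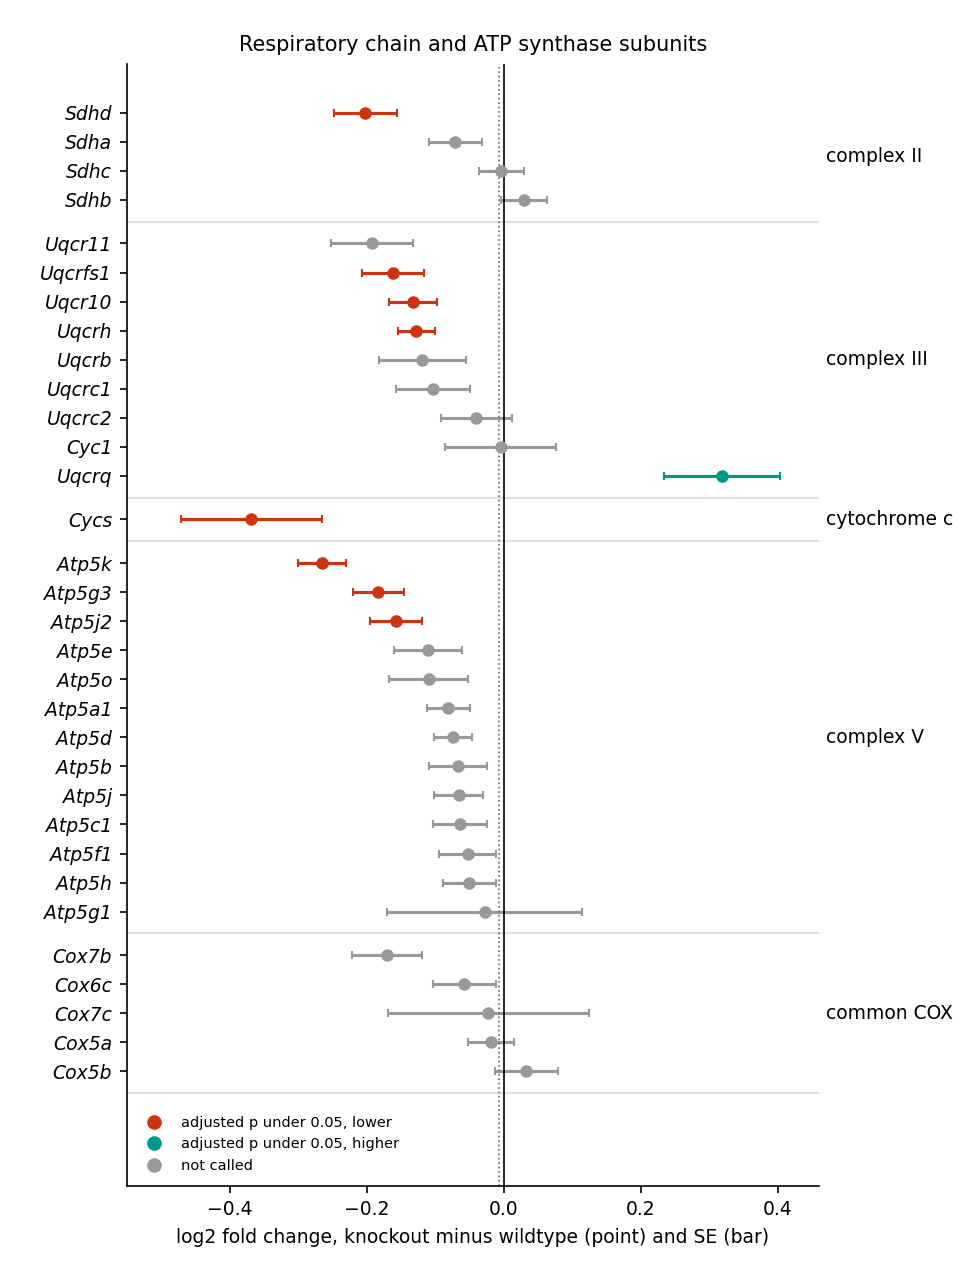
Log2 fold change of each of the 32 tested subunit genes, knockout minus wildtype (horizontal axis, point), with its SE (bar), grouped by complex. The solid line marks 0 and the dotted line the median of all genes tested, -0.01. Red marks the 8 genes called lower, green the 1 called higher, and 29 points lie left of 0.

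These genes vary little between clones, and a small change is then more easily called. At 10 CPM or more, 29 subunit genes had a median coefficient of variation of 4.99% in wildtype and 4.61% in knockout, against 8.71% and 6.63% over the 8537 genes at that level. The median SE of the log2 fold change was 0.041 for the subunit genes and 0.066 for those 8537. The 29 lay at 42.3 to 2453 CPM in wildtype, and the 8537 were not matched to them in level. The part of level in the smaller spread was not tested. Among genes at that level 24.1% of the subunit genes and 4.86% of all were called lower, and 89.7% and 53.1% were below 0.

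For 4 subunits of known role that kept their call in each of the 12 fits without 1 clone (Sdhd, Uqcrh, Atp5g3 and Atp5k), the 150 bases before the RefSeq start are shown, so that the letters known to bind respiratory-gene regulators can be seen beside the RNA values. Positions are in GRCm38.p6, and all 4 genes lie on the minus strand. The sequences read 5′ to 3′ along the gene, and capitals mark CCGGAAG (recognised by the ETS factor GABP), the NRF1 motif (GCGCA, any base, GCGC) or TCAAGGTCA (estrogen-related receptors), or their reverse complements. Further matches lie after the start and are not printed: TCAAGGTCA in Sdhd, the NRF1 motif in Atp5g3 and CCGGAAG in Atp5k, each as its reverse complement.
Sdhd, chr9:50603850-50603999: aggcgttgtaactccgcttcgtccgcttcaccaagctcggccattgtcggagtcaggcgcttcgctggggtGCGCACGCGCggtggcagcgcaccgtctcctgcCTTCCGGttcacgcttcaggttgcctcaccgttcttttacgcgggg
Uqcrh, chr4:116075071-116075220: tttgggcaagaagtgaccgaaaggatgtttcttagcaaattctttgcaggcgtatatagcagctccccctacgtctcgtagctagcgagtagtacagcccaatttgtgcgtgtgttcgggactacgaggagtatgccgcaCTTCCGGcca
Atp5g3, chr2:73911327-73911476: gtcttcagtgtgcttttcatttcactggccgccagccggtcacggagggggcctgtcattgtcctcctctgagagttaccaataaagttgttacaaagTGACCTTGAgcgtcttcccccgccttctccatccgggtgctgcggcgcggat
Atp5k, chr5:108434400-108434549: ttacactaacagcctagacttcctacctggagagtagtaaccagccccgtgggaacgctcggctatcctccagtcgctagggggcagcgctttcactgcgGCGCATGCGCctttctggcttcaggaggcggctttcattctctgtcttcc

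Complex II holds 4 subunits, and 1 of them, Sdhd, was called lower. SDHD is one of the pair of membrane anchors that hold the enzyme and bind ubiquinone. Sdhd ran from 258.6 to 296.6 CPM in wildtype (median 271.4) and from 223 to 257 in knockout (median 237.9). The groups did not overlap, although the margin between 4L, the highest knockout clone, and 2E, the lowest wildtype clone, was narrow. The log2 fold change was -0.20 (SE 0.045, n = 6 and 6, adjusted p = 0.0201), and it was -0.18 with an adjusted p of 0.0661, not called, when 2D and 3G were left out together. The other anchor, Sdhc, was level, at 176.9 ± 5.65 CPM in wildtype and 176.5 ± 7.04 in knockout. The iron-sulfur subunit Sdhb was at 129.8 ± 3.39 and 132.4 ± 6.11, and the flavoprotein Sdha, which holds the succinate site, at 588 ± 24.9 and 559.9 ± 25.6 (log2 fold change -0.07, adjusted p = 0.292). Sdhd was the only one of the 4 called by this test, and whether its difference departed from those of the other 3 was not tested.

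Complex III had calls in both directions: 3 of 9 subunits lower and 1 higher. Uqcrfs1 encodes the Rieske iron-sulfur protein, which takes electrons from ubiquinol. It ran from 159.7 to 189.4 CPM in wildtype (median 173.7) and from 149 to 167 in knockout (median 156.7), with overlap. Its log2 fold change was -0.16 (SE 0.045, adjusted p = 0.0486), close to the threshold. The call was made in 2 of the 12 fits that left out 1 clone (2E or 4J), and without 2D and 3G together the adjusted p was 0.136. Uqcrh, the acidic hinge protein that helps cytochrome c dock, ran from 139.9 to 154 CPM in wildtype (median 147.5) and 129.5 to 139 in knockout (median 134.7). Every knockout clone was lower, by small steps: the log2 fold change was -0.13 (SE 0.028, adjusted p = 0.0167). Uqcr10, a small supernumerary subunit, ran from 112.2 to 121.5 CPM (median 117.1) against 99.5 to 112.3 (median 108.0). Only 4L, at 112.3, reached the wildtype range. The log2 fold change of Uqcr10 was -0.13 (SE 0.035, adjusted p = 0.0384). It was called in 4 of the 12 fits without 1 clone (2E, 2F, 4J or 4L), and its adjusted p was 0.0876 without 2D and 3G together.

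Uqcrq, another small supernumerary subunit, rose. It ran from 128.1 to 181.9 CPM in wildtype (median 140.7) and from 159.1 to 202.7 in knockout (median 185.1). The overlap came from 1 wildtype clone: 2D, at 181.9, lay among the knockout clones, and the other 5 ran up to 155, below every knockout clone. The log2 fold change was 0.32 (SE 0.084, adjusted p = 0.0396), and it was 0.39 with an adjusted p of 0.00491 without 2D. Of the 12 fits without 1 clone 2 made the call, those without 2D and without 4K. The transcripts of Uqcrq in the annotation range from 405 to 1521 bases, so its level per length is not settled by the counts.

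The remaining 5 subunits of complex III were not called. Uqcr11, also a small subunit, was at 61.2 ± 5.42 CPM in wildtype and 53.5 ± 2.82 in knockout (log2 fold change -0.19, adjusted p = 0.0693), and DESeq2 called it lower. Uqcrb, a ubiquinone-binding subunit, was at 42.3 ± 3.49 and 39.0 ± 2.72. The core proteins Uqcrc1 and Uqcrc2 had log2 fold changes of -0.10 and -0.04 and adjusted p of 0.275 and 0.693. Cytochrome c1 (Cyc1), the haem subunit that hands electrons to cytochrome c, was at 212.2 ± 30.2 and 211.6 ± 11.8 (log2 fold change 0.00, adjusted p = 0.983). Its wide wildtype spread came from 1A and 2D, at 227.8 and 267.4 CPM, with the other 4 at 190.8 to 197. Of the catalytic subunits measured, the Rieske protein was thus called lower and cytochrome c1 was not, and the difference between them was not tested.

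Cytochrome c (Cycs), the soluble carrier between complexes III and IV, was called lower on a small number of reads. It had 91 to 136 counts in wildtype clones and 65 to 83 in knockout. On the CPM scale this was 4.10 to 5.20 (median 4.504) against 3.19 to 3.97 (median 3.50). The groups did not overlap, and the log2 fold change was -0.37 (SE 0.103, adjusted p = 0.0492). The call was made in 1 of the 12 fits without 1 clone, that without 2E, and the adjusted p was 0.131 without 2D and 3G together. All 50-base windows of its coding sequence also occur in other annotated genes. Over its whole transcript of 3123 bases 28.5% of the windows are shared, with 76 other genes, 10 of them pseudogenes.

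In complex V the 13 tested subunits all had a log2 fold change below 0, and 3 were called lower. Whether these 3 differed from the other 10 was not tested. Atp5k encodes subunit e, which joins ATP synthase into dimers that shape cristae. Its values were 73.4 to 82.2 CPM in wildtype (median 79.0) and 62.1 to 69.0 in knockout (median 64.7). The gap between the groups exceeded the SD of either (3.05 and 2.34), and the log2 fold change was -0.27 (SE 0.035, adjusted p = 0.0013). Atp5j2 encodes subunit f, a neighbour of subunit e in the membrane. It ran from 136.7 to 155 CPM (median 140.9) against 122 to 135 (median 129.5), with no overlap. Its log2 fold change was -0.16 (SE 0.038, adjusted p = 0.0264), and the call was lost without 2F, without 3G and without 3I. Without 2D and 3G together the adjusted p was 0.0686.

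Atp5g3 is one of 3 genes (Atp5g1, Atp5g2, Atp5g3) that encode the same mature c subunit of the rotating ring. Atp5g3 ran from 444.8 to 486 CPM in wildtype (median 455) and from 378 to 427 in knockout (median 406). All 6 knockout clones lay below 2E, the lowest wildtype clone, and the log2 fold change was -0.18 (SE 0.037, adjusted p = 0.0133). Counted reads of the 3 genes came almost wholly from Atp5g3: 98.98% ± 0.141 (SD, n = 6) in wildtype and 98.87% ± 0.175 in knockout. Atp5g1 gave 0.971% ± 0.128 and 1.08% ± 0.165, and Atp5g2 0.0464% and 0.0511%. These shares are of counted reads, not of transcripts: at least 99.7% of the coding windows of Atp5g1 and Atp5g2 also occur in other genes, and 0% of those of Atp5g3. Atp5g1 was at 4.52 ± 0.715 CPM in wildtype and 4.43 ± 0.70 in knockout, and Atp5g2 had 1 to 9 counts per clone and was not tested. The log2 fold change of Atp5g1 was -0.03 (adjusted p = 0.931).

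The catalytic head of ATP synthase, F1, included the most abundant transcripts of all 34 genes, and 0 of its 5 subunits were called by edgeR. At an unadjusted p under 0.05 there were 3 (Atp5a1, Atp5d, Atp5e), and DESeq2 called 1, Atp5a1. The beta subunit Atp5b was at 2453 ± 127 CPM in wildtype and 2343 ± 101.5 in knockout, and the alpha subunit Atp5a1 at 1881 ± 59.5 and 1779 ± 54.3. Their log2 fold changes were -0.07 (adjusted p = 0.376) and -0.08 (0.142). The gamma, delta and epsilon subunits (Atp5c1, Atp5d, Atp5e), which form the central stalk, had log2 fold changes of -0.06, -0.07 and -0.11, with adjusted p from 0.125 to 0.365. Atp5d was narrow, with an SD of 2.80 around 195.3 CPM in knockout and of 7.56 around 205.7 in wildtype. The peripheral stalk genes Atp5o (OSCP), Atp5f1 (b), Atp5h (d) and Atp5j (F6) lay between -0.05 and -0.11, with adjusted p from 0.271 to 0.481. Atp5l, which encodes subunit g, the partner of subunit e, had 2 to 14 counts per clone and was not tested, so the pair could not be compared.

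Of the 5 common COX subunits 0 were called by edgeR, with 1, Cox7b, at an unadjusted p under 0.05. DESeq2 also called 1, the same gene. Cox7b, a small supernumerary subunit encoded on the X chromosome as Taz is, was at 164.7 ± 7.93 CPM in wildtype and 146.4 ± 11.0 in knockout (log2 fold change -0.17, SE 0.051, adjusted p = 0.0631). Knockout clones 4J and 4L, at 162.3 and 157.7, lay within the wildtype range, and the other 4, at 136.2 to 145, lay below it. Cox6c was at 103.4 ± 4.74 and 99.4 ± 6.25, Cox5a, on the matrix side, at 88.8 ± 3.06 and 87.6 ± 3.35, and Cox5b, which binds zinc, at 59.98 ± 2.18 and 61.4 ± 4.02. Cox7c was counted at 3.96 ± 0.566 and 3.90 ± 0.718 CPM, and every 50-base window of its coding sequence also occurs in other genes.

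**Figure D2:**
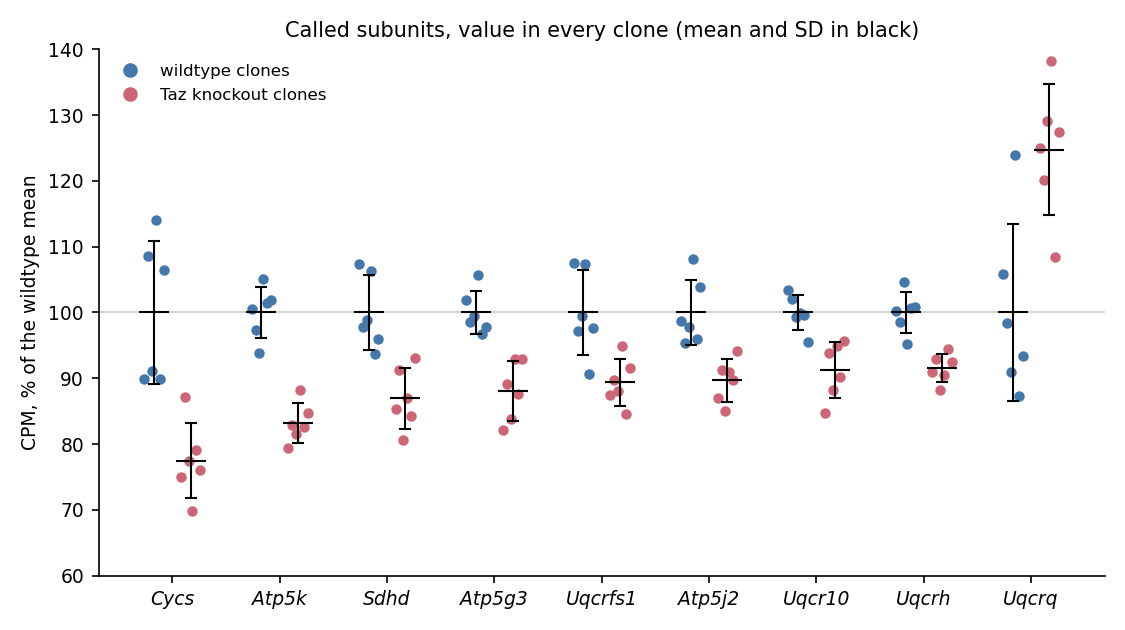
CPM of the 9 called subunits in each clone as a percentage of the wildtype mean of that gene (vertical axis, starting at 60%), with mean and SD in black. In 6 genes all knockout points lie under all wildtype points, and for Uqcrq 1 wildtype clone, 2D, lies among the knockout clones.

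Summed over the subunits of a complex, the mean levels were lower in knockout, and the clones of the genotypes overlapped. The 34 genes, the untested Atp5g2 and Atp5l included, summed to 9544 ± 401 CPM in wildtype and 9046 ± 326 in knockout, a ratio of 0.948. Complex V had the highest sum, with means of 6272 ± 245 and 5914 ± 209 (-5.70%). The means of complex II were 1171 ± 32.4 and 1109 ± 41.8 (-5.30%), of complex III 1676 ± 122 and 1621 ± 69.9 (-3.26%), and of the common COX subunits 421 ± 11.3 and 399 ± 23.0 (-5.28%). No test was run on the sums. The difference of complex III was -0.784% without 2D, -1.92% without 4K and -0.387% without 2D and 3G together. With both of those left out, the other differences were -4.26% for complex II, -3.64% for complex V, -4.85% for the common COX subunits and -3.21% for all 34 genes. Because a few abundant genes dominate them, the medians of the log2 fold changes are also given: -0.04 for complex II, -0.12 for complex III, -0.07 for complex V and -0.02 for the common COX subunits. As a share of all gene counts, the 34 genes took 0.954% ± 0.0359 in wildtype and 0.903% ± 0.0302 in knockout.

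**Figure D3:**
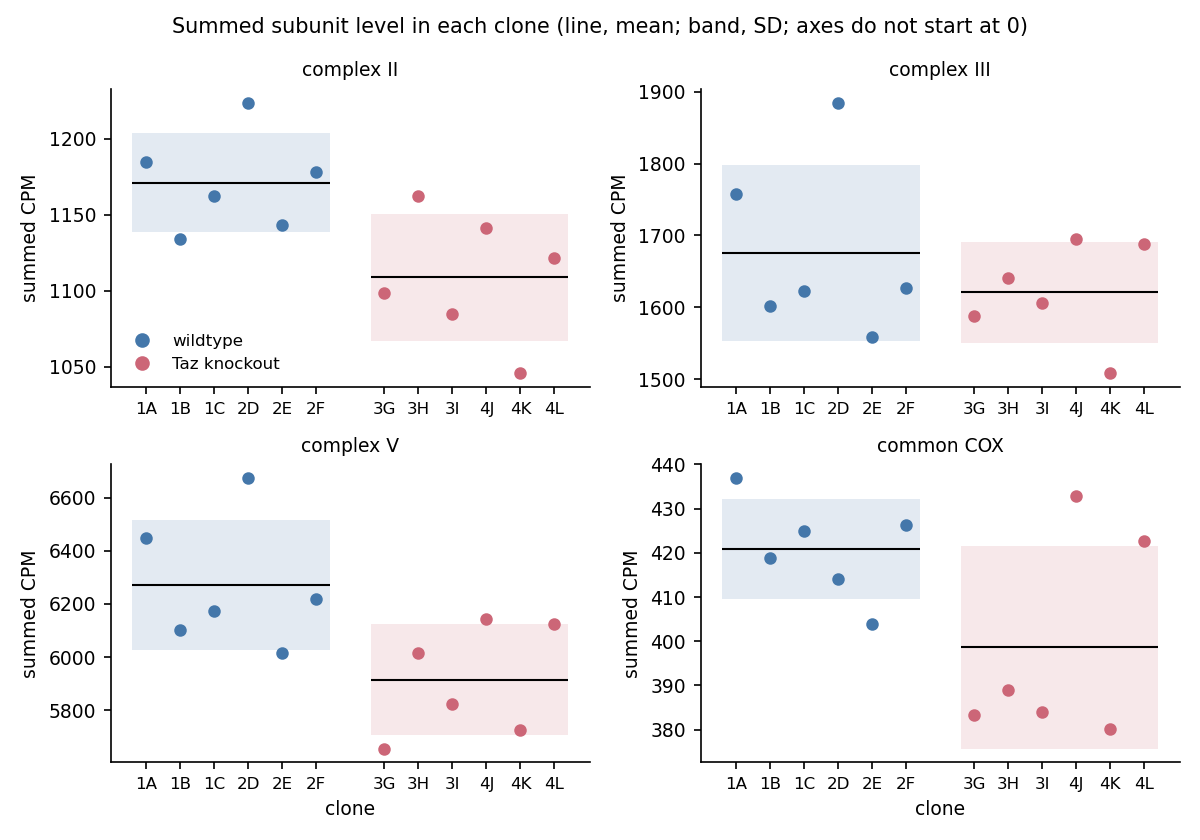
Summed CPM of the subunits of each complex, the untested Atp5g2 and Atp5l included (vertical axes, which do not start at 0), in every clone. The mean is a line and the SD a band. Clone 2D has the highest sum among wildtype clones in complexes II, III and V, and 4K the lowest among knockout clones in complexes II and III and the common COX subunits.

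The same clones were often high or low. Clone 2D held the highest wildtype value in 18 of the 32 genes and 2E the lowest in 10. Among knockout clones 4J and 4L were each highest in 13 genes, while 4K was lowest in 12, and 3G and 3I in 9 each. Clone 2D is the one with the high neutrophil markers and 3G the one with hepatocyte markers. Without 2D there were 5 lower and 1 higher calls among the subunits, where 3.88% of all genes were called lower. Without 3G there were 4 and 0, where 2.29% of all genes were called lower. With both left out there were 3 lower (Uqcrh, Atp5g3 and Atp5k) and 1 higher (Uqcrq), where 2.75% of all genes were called lower, and the median log2 fold change was -0.06.

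The title numbers gave a second view of the spread. Within a genotype, 0 of the 32 genes and 0% of all genes were called by edgeR between the clones of title number 1 and 2, and the same held between 3 and 4. At an unadjusted p under 0.05 there were 0 and 1 subunit genes. No other tool was run on these contrasts. The median log2 fold changes within genotypes were 0.00 (2 against 1) and 0.03 (4 against 3). The 4 pairs across genotypes had medians of -0.09 (3 against 1), -0.09 (3 against 2), -0.06 (4 against 1) and -0.07 (4 against 2), with 26, 28, 27 and 26 genes below 0. Over all genes the medians of these 4 pairs ran from -0.0107 to -0.00136. The pairs share clones and are not independent. With 3 clones a side, Atp5k was the 1 subunit called lower, in 3 against 1, 3 against 2 and 4 against 2, where 0.575%, 0.296% and 0.0931% of all genes were called lower. In 4 against 1, where 0.178% of all genes were called lower, edgeR called 0 subunits. At an unadjusted p under 0.05, in either direction, there were 11 subunit genes in 3 against 1 and 12 in 3 against 2. In 4 against 1 there were 9, and in 4 against 2 there were 8. For these title-number contrasts the shares of all genes below 0 or at an unadjusted p under 0.05 were not computed. The subunit counts at those limits therefore have no background here. With counts summed by title number, 2 sums against 2, edgeR called 0 subunits lower and 1 higher, where 0.841% of all genes were called lower. Atp5k then had an adjusted p of 0.0769.

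Reads that align to several places are not in the counts, so each gene's sequence was compared with the other annotated transcripts. In 5 genes (Cycs, Cox7c, Atp5g1, Atp5g2, Atp5l) at least 99.7% of the 50-base windows of the coding sequence also occur in other annotated transcripts. Counted over whole transcripts, pseudogenes were 12 of the 14 other genes for Atp5l and 10 of the 76 for Cycs. The 5 genes were at 0.216 to 4.56 CPM in wildtype. The other 29, with 0 to 72.9% of windows shared, were at 42.3 to 2453 CPM. Over whole transcripts the 2 sets were not separated: the share of windows also found elsewhere was 11.6% for Atp5g1, 28.5% for Cycs, 53.0% for Cox7c, 84.8% for Atp5l and 87.4% for Atp5g2, and among the 29 it reached 50.3% (Atp5o), 47.9% (Atp5h) and 43.4% (Uqcrb). Whether sharing accounts for the low counts was not tested. The window of 50 bases is a choice, as the read length is not given in the sources used here, and at 100 bases Atp5g1 leaves the group and the other 4 remain. Among the 13 genes with no shared coding window, 4 were called lower (Sdhd, Uqcrfs1, Uqcr10, Atp5g3) and 1 higher (Uqcrq). Multi-mapped reads were 43.2% ± 0.381 of records in wildtype and 44.0% ± 0.542 in knockout (exact two-sided permutation p = 0.0152, or 0.0303 when adjusted likewise), and their part in the differences was not tested.

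**Figure D4:**
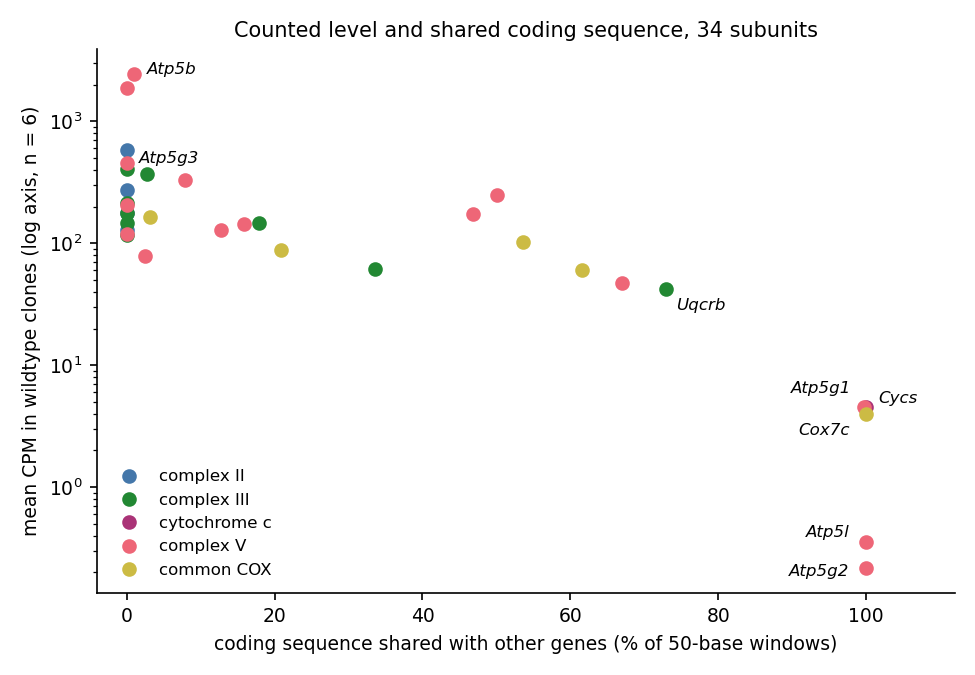
Mean CPM in the 6 wildtype clones (vertical log axis) of the 34 subunit genes against the percentage of 50-base coding windows that also occur in other genes (horizontal axis), coloured by complex. The 5 genes at the right, with at least 99.7% of windows shared, lie at 0.216 to 4.56 CPM, and the other 29 at 42.3 to 2453.

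Per kilobase of transcript, the order of the wildtype levels was led by ATP synthase: Atp5b at 1280 ± 66.3 CPM per kilobase (SD, n = 6), Atp5a1 at 761 ± 24.1 and Atp5g3 at 636 ± 20.8. These 3 were separated by more than their SDs. Next came Atp5e at 282 ± 14.9, Atp5c1 at 282 ± 15.9, Uqcr10 at 270.5 ± 7.34 and Uqcrh at 269 ± 8.21, which lay within 1 SD of Atp5e or of each other. Among genes with fewer than 99% of windows shared, Sdhc was lowest, at 55.8 ± 1.78. Its partners were at 224 ± 12.6 (Sdhd), 203 ± 8.57 (Sdha) and 113.7 ± 2.97 (Sdhb), although the complex holds 1 copy of each. Uqcrq was at 96.4 or 362 CPM per kilobase with its longest or shortest transcript. Length rests on 1 annotated transcript per gene, so these levels shift where other transcripts are used.

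Short transcripts were frequent among the subunits, so the differences were also set beside genes of like length. Under 600 bases, 7 subunit genes had a median log2 fold change of -0.13, and 66 other genes at 10 CPM or more had 0.00. In the next class, shorter than a kilobase, the medians were -0.06 for 8 subunit genes and -0.04 for 366 others. With a trend on transcript length and GC content removed, edgeR called 9 subunits lower and 1 higher, where 4.09% of all genes were called lower, and the median log2 fold change of the subunits was -0.06.

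Reads were counted without regard to strand, and several of the genes overlap a gene on the other strand in the annotation. By whole gene spans, introns included, Atp5j overlaps Gabpa, Atp5a1 overlaps Haus1, Atp5f1 overlaps Wdr77, Uqcrc2 overlaps Pdzd9 and Cox6c overlaps Vps13b, among others. In the transcripts compared, each of these named pairs shares 50-base windows except Cox6c and Vps13b. A read on exons of both genes cannot be assigned to either, and the part of this in the results was not tested. Of the 9 called subunits only Uqcrh had a span overlap with a gene on the other strand, the predicted gene Gm12854.

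The promoters of these genes hold short motifs of known respiratory-gene regulators. RefSeq windows (GRCm38.p6) from 250 bases before to 50 after the start were matched for 27 of the 34 genes. On either strand, CCGGAAG (GABP) was in 9 of the 27 (33.3%), against 9.93% of all gene windows and 21.7% of the 8895 tested genes with a window. The NRF1 motif was also in 9, against 5.19% and 12.3%. CCAAT was in 14 (51.9%, against 41.1% and 43.3%), and AANATGGCG (YY1) in 3 (11.1%, against 2.76% and 6.57%). TCAAGGTCA (estrogen-related receptors) was in 2 (7.41%, against 0.466% and 0.315%), and the cAMP-response element TGACGTCA in 2 (7.41%, against 2.03% and 3.72%). No 2 different motifs overlapped in the windows of the subunits. The pair with TCAAGGTCA were Sdhd and Atp5g3, and the pair with TGACGTCA were Uqcrfs1 and Cycs, all 4 called lower. GABP and NRF1 letters were each in 3 of the 8 genes called lower and 5 of the 17 tested but uncalled genes with a window, CCAAT in 5 and 8, and YY1 letters in 1 and 2. With so few genes no pattern was read from these splits. A match is a run of letters and does not show that a factor binds there.

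Of 12 tested regulators of respiratory genes, 0 were called lower by edgeR and 2 higher. At an unadjusted p under 0.05 there were 1 lower and 4 higher, and DESeq2 called 1 lower and 2 higher. Gabpb1, the beta subunit of GABP, rose from 83.5 ± 4.19 to 97.7 ± 5.65 CPM (log2 fold change 0.23, adjusted p = 0.0124). Pprc1, a coactivator of the PGC-1 family, rose from 130.8 ± 9.81 to 147.0 ± 4.19 (0.17, adjusted p = 0.0474). Gabpa, the DNA-binding subunit of GABP, was at 134.6 ± 5.28 and 125.0 ± 5.34 (-0.11, adjusted p = 0.0915), and it shares a start region with Atp5j. Nrf1 was at 67.1 ± 0.966 and 65.1 ± 2.42 (-0.04, adjusted p = 0.403).

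The other respiratory genes are given for comparison. Of 36 tested complex I subunits 2 were called lower, Ndufv3 (log2 fold change -0.38) and Ndufb3 (-0.22), with 30 below 0 and a median of -0.05. Among 10 tested tissue-specific and remaining COX subunits, 1 was lower (Cox6b1, -0.17) and 2 higher (Cox7a2l, 0.27, and Cox6a2, 3.78, from 2.13 ± 1.03 to 29.4 ± 5.19 CPM). Among assembly factors, Ttc19, which acts in complex III, was higher (0.27, adjusted p = 0.00718), 1 call among 10 tested factors of complexes II and III. Cox19, which acts in COX assembly, was lower (-0.22), 1 call among 21. Of 9 assembly, inhibitor and accessory genes of ATP synthase, 2010107E04Rik, a small accessory subunit, was called lower (-0.15), with an adjusted p just under the threshold. Below 0 were 7 of the 10 other COX subunits (median -0.08) and 7 of the 9 ATP synthase genes (median -0.05). For assembly factors these were 4 of 10 for complexes II and III (0.02) and 13 of 21 for COX (-0.02). The 32 subunit genes had a median of -0.07. Over all genes 51.7% were below 0, with 3.94% called lower and 3.99% higher. Whether the subunits differed from these lists was not tested.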

How the data were processed

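RNA-seq of 12 clones was analysed from the deposited raw counts of reads per Ensembl gene. STAR, HTSeq and edgeR and the build mm9 are named, without versions, per the submitters' processing notes, and reads were counted without strand, per the file names. The 5 HTSeq total lines of each file were left out of library sizes: multi-mapped records were 42.8% to 44.9%, records outside genes 3.06% to 3.93% and ambiguous records 1.53% to 1.65%. Names, lengths and transcripts came from GENCODE M21, of a later build, so no gene coordinates are given; promoter windows are RefSeq's. Symbols were matched for 32860 of 37583 gene rows.

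The test was edgeR 4.0.16 (R 4.3.3) with TMM, filterByExpr by genotype, the quasi-likelihood F-test and Benjamini-Hochberg adjustment over 11819 genes. The SE is the absolute log2 fold change over the square root of F. Levels are TMM-scaled CPM; a count of 3, the limit that a count of 0 allows, is 0.109 to 0.158 CPM and covers counting error only. Alternatives (24) were other scalings and filters, DESeq2 1.42.0, limma 3.58.1, title-number designs, a length and GC offset and leaving out clones. The last of them, leaving out 2D and 3G together, was chosen after seeing the data. The genes and lists were chosen with earlier results of these data known. Every subunit is named or counted, and of each other list up to 4 called genes with the smallest adjusted p are named.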

Additional observations from a re-analysis of the deposited data

How the results depend on the processing

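The main counts were 8 subunits called lower and 1 higher. Across 24 alternatives the lower count ran from 0 to 12, where 0.841% to 9.52% of all genes were called lower. The median log2 fold change of the subunits stayed below 0 in every one, between -0.09 and -0.06. Without any filter on low counts there were 5 lower and 0 higher (280 of all genes lower, 1.24%, against 3.94% in the main test). With 4 groups by title number there were 6 lower and 0 higher (2.82% of all genes lower). With counts summed by title number there were 0 lower and 1 higher (116 of all genes lower, 0.841%), and with 2D and 3G left out together 3 lower and 1 higher (2.75%). Fits without 1 clone gave 4 to 9 lower and 0 to 1 higher. In these fits 2.29% (without 3G) to 4.49% (without 2E) of all genes were called lower, against 3.94% in the main test. The lower count was 5 without 1A, 1B, 1C, 2D, 2F, 3H or 4K, where 2.56% to 3.88% of all genes were called lower. It was 4 without 3G or 3I, where 2.29% and 2.31% were. The higher call was kept without 2D and without 4K. The call of Uqcrh, Atp5g3 and Atp5k was lost in 1 alternative, the sums by title number, and that of Sdhd there and without 2D and 3G together. Uqcrfs1 and Cycs were each called in 7 of 24, Uqcrq in 12, Uqcr10 in 13 and Atp5j2 in 19. DESeq2 gave 11 lower, with 830 of all genes lower (6.34%), against 466 in the main test. Among 23 uncalled genes 17 kept their sign in every alternative, 6 did not, and 4 (Uqcr11, Atp5a1, Atp5d, Cox7b) were called in some. Per kilobase, the share of c-subunit reads was 99.8% for Atp5g3 in both genotypes, and 0.1501% in wildtype and 0.168% in knockout for Atp5g1. Some alternatives also had fewer samples or more genes tested, and the cause of these changes was not tested. No paired analysis was possible because the title numbers 1 and 2 occur only in wildtype and 3 and 4 only in knockout. With title number as a correlated replicate block (limma voom, estimated correlation -0.169), 12 subunits were lower and 1 higher, with 1125 and 1171 over all genes. Without the block limma voom gave 7 and 1, with 428 and 497 over all genes. A negative correlation does not widen the SE, so the fit with the block is no guard against clones that are not independent. Depth limits the 5 genes at under 5 CPM, whose SE was 0.10 or more where tested.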
